A study of Mus musculus with 6 samples.

Results

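Adipokines are proteins that fat cells release into the blood and that act on other tissues or on the fat cell itself. The 8 taken here, out of 24421 gene symbols counted, were *Adipoq*, *Retn*, *Cfd*, *Lep*, *Rbp4*, *Nampt*, *Apln* and *Rarres2*. They were listed by name as secreted products of adipocytes, with earlier results of these data known. Their mRNA was read in RNA-Seq libraries of mature 3T3-L1 adipocytes, 3 infected with a control adenovirus carrying *LacZ* (AdLacZ) and 3 with an adenovirus carrying *Lmo3* (Ad*Lmo3*), to ask what LMO3, a LIM-domain transcriptional cofactor, changes in the fat cell. In Ad*Lmo3* libraries *Retn*, *Adipoq*, *Cfd* and *Rarres2* were induced, by 2.71-fold, 2.08-fold, 1.76-fold and 1.40-fold. The change of *Rarres2* was close to the threshold (adjusted p = 0.0453, edgeR) and did not pass it in most fits that leave out a library. *Lep*, *Apln* and *Nampt* had higher means but did not pass the test, and *Rbp4* was barely detected.

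3T3-L1 is an immortal mouse cell line that turns from fibroblast-like preadipocytes into fat-laden adipocytes under hormones, so all 6 libraries come from 1 line in culture and not from animals, although the labels give C57BL/6 as the strain. Cells of both groups received the same cocktail of insulin, TZD, dexamethasone and IBMX, the latter pair only at the start, and insulin with TZD afterwards. TZD, a ligand of PPARγ, is itself known to act on adipokine genes, and both groups carried it. Virus was added at 100 pfu/cell on day 7 and RNA was taken 72 h later, from 3 separate infections for each virus.

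In the body these products have different jobs. Adiponectin raises insulin sensitivity and acts through the receptors AdipoR1 and AdipoR2, leptin reports fat stores to the brain, apelin and chemerin bind G-protein-coupled receptors, and resistin, which mouse adipocytes secrete, has been linked to insulin resistance. Adipsin (complement factor D) is a serine protease that starts the alternative complement pathway, NAMPT makes the precursor of NAD inside and outside cells, and RBP4 carries retinol in the blood. Several of the genes, *Adipoq* above all, are known targets of the adipogenic factors PPARγ and C/EBPα.

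The stretches in front of the genes are shown for the 3 adipokines with the largest changes, and for *Lep* as a gene that did not pass the test, because the first 3 passed the test in the same direction. Each runs 5′ to 3′ on the gene's own strand from 250 bases before to 50 bases after the transcription start (RefSeq, GRCm38.p6). Capitals mark every match to DR1, the spaced repeat that PPARγ-RXR binds, to the hexamer AGGTCA that is repeated in it, to TTGCNNAA, the core read by C/EBP proteins, to the E-boxes CACGTG and CANNTG, and to TATAAA, on either strand.
*Retn* promoter, chr8:3655520-3655819, + strand: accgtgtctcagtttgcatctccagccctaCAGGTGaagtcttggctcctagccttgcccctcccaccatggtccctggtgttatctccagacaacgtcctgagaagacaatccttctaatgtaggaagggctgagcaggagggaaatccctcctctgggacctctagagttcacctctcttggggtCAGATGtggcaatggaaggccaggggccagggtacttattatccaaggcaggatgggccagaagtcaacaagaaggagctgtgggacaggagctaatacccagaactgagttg
*Adipoq* promoter, chr16:23146286-23146585, + strand: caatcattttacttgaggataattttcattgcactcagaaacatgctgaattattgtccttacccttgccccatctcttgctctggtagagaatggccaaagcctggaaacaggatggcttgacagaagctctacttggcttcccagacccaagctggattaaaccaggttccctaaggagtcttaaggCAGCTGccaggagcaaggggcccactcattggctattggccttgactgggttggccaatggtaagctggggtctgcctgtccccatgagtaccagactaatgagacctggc
*Cfd* promoter, chr10:79890603-79890902, + strand: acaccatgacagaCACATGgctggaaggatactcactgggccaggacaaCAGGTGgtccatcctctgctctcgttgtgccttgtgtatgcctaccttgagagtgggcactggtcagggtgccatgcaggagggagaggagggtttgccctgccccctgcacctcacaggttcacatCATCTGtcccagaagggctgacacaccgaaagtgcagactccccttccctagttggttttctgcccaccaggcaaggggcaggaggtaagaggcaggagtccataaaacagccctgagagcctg
*Lep* promoter, chr6:29059971-29060270, + strand: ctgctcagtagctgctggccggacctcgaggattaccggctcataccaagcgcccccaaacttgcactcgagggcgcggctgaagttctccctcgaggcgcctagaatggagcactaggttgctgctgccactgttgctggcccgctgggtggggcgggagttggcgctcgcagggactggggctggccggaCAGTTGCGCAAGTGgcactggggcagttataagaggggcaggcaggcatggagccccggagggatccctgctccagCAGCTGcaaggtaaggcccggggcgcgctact
Of the 8 genes, 7 had such a window, 8 windows in all since *Rbp4* had a pair. All 7 held CANNTG, which also occurs in 72.3% of the 32851 mouse promoter windows of the same length. In the *Retn*, *Adipoq* and *Cfd* windows it was the only motif matched, with 2, 1 and 3 matches. The *Lep* window held TTGCGCAA from position -55 to -48 relative to the start site, overlapping CANNTG on both sides, and TTGCNNAA was also in 1 *Rbp4* window (10.8% of all windows). A single AGGTCA lay in the *Nampt* window at position -151 (16.3% of all windows), and TATAAA was found at *Rbp4* only (13.6%). DR1 (0.0396% of all windows) and CACGTG (7.15%) were in none. Only exact matches within these windows were counted, so a missing match does not show that a factor does not bind the gene. In base composition the windows printed above ran from 50% G and C at *Adipoq*, 54% at *Retn* and 57.7% at *Cfd* to 66% at *Lep*. Those of *Rbp4* had 40.7% and 72%, that of *Apln* 64% and that of *Nampt* 76.3%. The median over all mouse promoter windows was 52.7%.

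Gene counts summed to 28035639 to 38332335 per library, and 3 counts, taken as the smallest detectable number, correspond to 0.0783 to 0.107 CPM. CPM are counts scaled to a common library size, here after TMM scaling. Levels are given in this unit, and changes as log2 fold changes of Ad*Lmo3* over AdLacZ with adjusted p-values from edgeR's quasi-likelihood test over the 12766 genes with enough counts. *Lmo3* itself had 0 counts in all 6 libraries. The methods describe the viral *Lmo3* as codon-optimized, and the labels could not be checked through it. The cells' identity was checked on marker lists. All 10 adipocyte markers were expressed, with a summed level of 22468 to 25797 CPM in AdLacZ libraries and of 29206 to 34292 CPM after Ad*Lmo3*. The 9 preadipocyte markers summed to 15503 to 19974 and 15360 to 22981 CPM, the 8 macrophage markers to 16.3 to 17.5 and 13.3 to 15.7 CPM with *Adgre1* and *Ptprc* at 2 counts or fewer in each library, and the 5 endothelial markers to 1.55 to 2.38 and 1.07 to 1.86 CPM. Most of the preadipocyte sum was the collagen genes *Col3a1* (means 11383 and 12335 CPM) and *Col1a1* (5105 and 5692 CPM), so it does not measure the share of preadipocytes. *Dlk1*, another of these markers, had means of 1159 and 1163 CPM.

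Among the 8 adipokines, 7 had enough counts to be tested and 4 of these were called, all induced. Over all tested genes 4.28% were called, and 2.71% were called and higher in Ad*Lmo3*. As the 8 were chosen with earlier results of these data known, these shares do not test adipokines as a class. The median log2 fold change was 0.58 for the 7 adipokines and 0.00 for all tested genes. All 7 had a positive log2 fold change (50.4% of all tested genes), and in 4 of the 7 every Ad*Lmo3* library lay above every AdLacZ library, as it did in 13.3% of all tested genes.

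**Figure D1:**
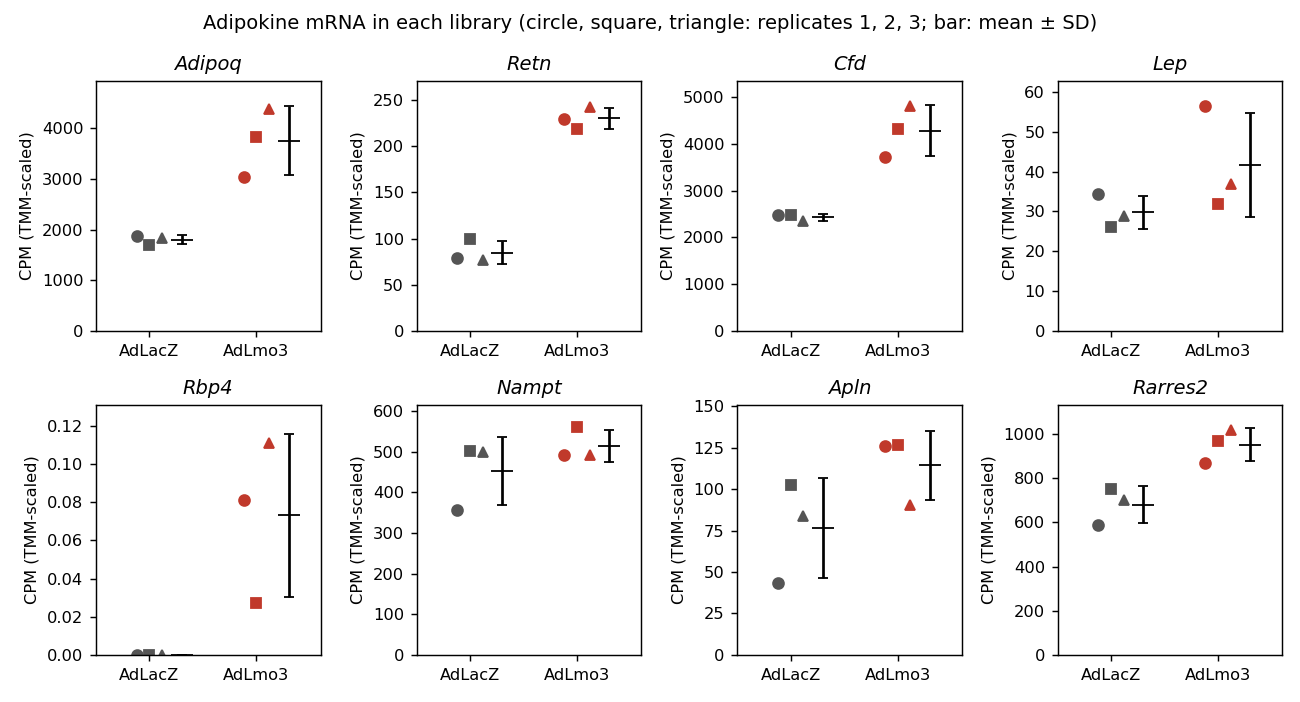
Level of each adipokine mRNA (TMM-scaled CPM, linear axes from 0, a scale of its own for each gene) in the 3 AdLacZ (grey) and 3 Ad*Lmo3* (red) libraries, with circle, square and triangle for replicates 1, 2 and 3 and a bar for the mean ± SD. The groups are apart for *Adipoq*, *Retn*, *Cfd* and *Rarres2*, overlap for *Lep*, *Nampt* and *Apln*, and *Rbp4* stays at or under 3 counts in every library.

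*Retn* encodes resistin and lies on chromosome 8 from 3655770 to 3660110 (plus strand, GRCm38, as for all positions that follow). It had 79.0, 99.3 and 76.9 CPM in AdLacZ replicates 1, 2 and 3, and 229.8, 219.0 and 241.9 CPM in Ad*Lmo3* replicates 1, 2 and 3. The lowest Ad*Lmo3* library was thus far above the highest AdLacZ library. Mean levels of 85.1 ± 12.4 and 230.2 ± 11.5 CPM (SD, n = 3 each) corresponded to a log2 fold change of 1.44 (SE 0.107, 95% interval 1.19 to 1.68, adjusted p = 0.00243, edgeR). Ranked from the most positive log2 fold change down, so that larger falls do not count, *Retn* was 17th among all 12766 tested genes. By p-value it was 3rd. Among all tested genes 0.384% were called with a log2 fold change of at least 1. The call held in each of the 14 alternative fits, with log2 fold changes from 1.37 to 1.56 when single libraries were left out. In bulk RNA a change in the RNA per cell and a change in the number of cells that make it cannot be told apart, here and for each gene that follows.

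*Adipoq* encodes adiponectin, the most abundant hormone of fat cells, on chromosome 16 from 23146536 to 23158028 (plus strand). Its levels were 1872, 1707 and 1836 CPM in the AdLacZ libraries and 3031, 3831 and 4384 CPM in the Ad*Lmo3* libraries. Within AdLacZ the libraries were close together, with a coefficient of variation of 4.81%, and the Ad*Lmo3* libraries, all higher, were spread by 18.1%. The 95% interval of the log2 fold change of 1.05 (SE 0.133) ran from 0.75 to 1.36 (adjusted p = 0.00724, edgeR). Without AdLacZ replicate 3 the log2 fold change was 1.07 and the adjusted p was 0.0554, and the gene was called in the other 13 of 14 alternative fits.

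*Cfd* encodes adipsin, on chromosome 10 from 79890853 to 79892655 (plus strand). Its AdLacZ libraries held 2471, 2468 and 2345 CPM, against 3710, 4304 and 4799 CPM in the Ad*Lmo3* libraries. As for *Adipoq*, the AdLacZ libraries were alike (coefficient of variation 2.96%) and the Ad*Lmo3* libraries more scattered (12.8%) but all higher. Mean CPM went from 2428 ± 71.9 to 4271 ± 545 (SD, n = 3 each), and the log2 fold change was 0.81 (SE 0.106, 95% interval 0.57 to 1.06, adjusted p = 0.00780, edgeR). Leaving out AdLacZ replicate 3 gave 0.79 with an adjusted p of 0.0601, and the other 13 alternative fits kept the call. By level *Cfd* moved from 22nd to 8th and *Adipoq* from 33rd to 12th among all 24421 gene symbols. This ranking was on CPM, without regard to gene length.

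*Rarres2* encodes chemerin, a chemoattractant and adipokine, on chromosome 6 from 48569696 to 48572789 (minus strand). The AdLacZ libraries held 589.6, 751 and 700.2 CPM and the Ad*Lmo3* libraries 869.9, 968 and 1017 CPM. The groups did not overlap. Means of 680.3 ± 82.6 and 951 ± 74.9 CPM (SD, n = 3 each) gave a log2 fold change of 0.48 (SE 0.107, 95% interval 0.24 to 0.73, adjusted p = 0.0453, edgeR), close to the threshold. The call was lost in 5 of the 6 fits that leave out a library, with log2 fold changes of 0.39 to 0.56. The adjusted p was 0.0930 without AdLacZ replicate 1, 0.0573 without AdLacZ replicate 2, 0.151 without AdLacZ replicate 3, 0.157 without Ad*Lmo3* replicate 2 and 0.109 without Ad*Lmo3* replicate 3. With library totals in place of TMM scaling it was 0.0508. In addition 33.6% of the exon bases of *Rarres2* are overlapped by *Lrrc61* on the opposite strand, and the strand setting of the count is not given in the sources used here. *Lrrc61* was far lower, with means of 23.9 ± 2.44 (AdLacZ) and 21.6 ± 0.0520 CPM (Ad*Lmo3*, SD, n = 3 each) and a log2 fold change of -0.15 (adjusted p = 0.410, edgeR). No exon of the other 7 adipokines is overlapped by another gene.

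*Lep*, on chromosome 6 from 29060220 to 29073877 (plus strand), encodes leptin. AdLacZ replicates had 34.3, 26.1 and 29.0 CPM, and Ad*Lmo3* replicates had 56.5, 31.8 and 36.8 CPM. Only Ad*Lmo3* replicates 1 and 3 exceeded the highest AdLacZ library, and replicate 1 stood well above the other two. The log2 fold change of 0.49 (SE 0.204, 95% interval 0.02 to 0.96) had an unadjusted p of 0.0433 and an adjusted p of 0.224 in edgeR, and it was 0.21 without Ad*Lmo3* replicate 1.

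*Apln*, on the X chromosome from 48025146 to 48034853 (minus strand), encodes apelin, a peptide that acts on blood vessels and heart. AdLacZ libraries had 43.3, 102.3 and 84.1 CPM and Ad*Lmo3* libraries 125.9, 126.9 and 90.3 CPM. Here AdLacZ replicate 1 was the low library, and Ad*Lmo3* replicate 3 lay among the AdLacZ libraries. The log2 fold change was 0.58 (SE 0.281, 95% interval -0.07 to 1.22, adjusted p = 0.294, edgeR), and 0.29 without AdLacZ replicate 1. With a coefficient of variation of 39.5% in AdLacZ, *Apln* varied most between control libraries of the 7 tested.

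*Nampt*, on chromosome 12 from 32819545 to 32853349 (plus strand), encodes the enzyme that sets the pace of NAD salvage. Its 356, 501.7 and 499 CPM in AdLacZ overlapped with 491.7, 560.03 and 493 CPM in Ad*Lmo3* libraries. AdLacZ replicate 1 was again the low library. The log2 fold change was 0.19 (SE 0.135, 95% interval -0.12 to 0.50, adjusted p = 0.494, edgeR) and 0.04 without that library. A rise of more than 0.50 on the log2 scale lay outside the interval.

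*Rbp4*, on chromosome 19 from 38116629 to 38125281 (minus strand), encodes the retinol carrier of blood. It had 0 counts in each AdLacZ library and 3, 1 and 3 counts in Ad*Lmo3* replicates 1, 2 and 3. All libraries were at or under 3 counts, so no fold change is given and the gene was not tested. In these cells *Rbp4* mRNA was at the limit of detection at this depth.

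**Figure D2:**
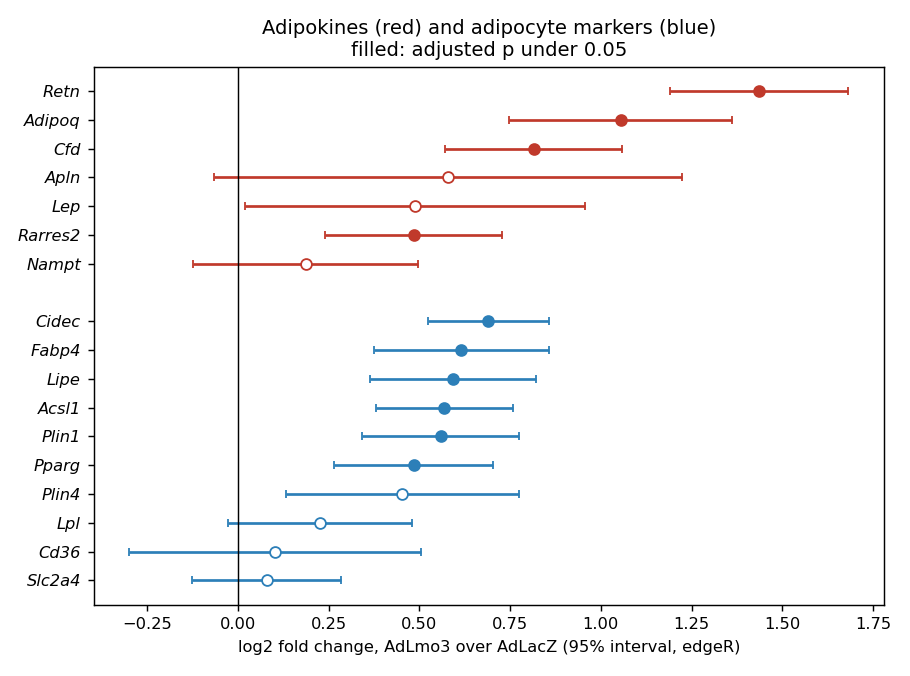
Log2 fold change of Ad*Lmo3* over AdLacZ with its 95% interval (edgeR, 3 libraries per group) for the 7 tested adipokines (red) and the 10 adipocyte markers (blue), filled where the adjusted p was under 0.05. The estimates for *Retn*, *Adipoq* and *Cfd* lie at 1.44, 1.05 and 0.81, to the right of every marker estimate. The highest marker estimate is *Cidec* at 0.69. The intervals of *Adipoq* (0.75 to 1.36) and *Cfd* (0.57 to 1.06) overlap that of *Cidec* (0.52 to 0.86).

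Levels of different genes were compared per kilobase of exon. In AdLacZ libraries *Cfd* was highest with 2634 CPM per kb and *Adipoq* followed with 1307. *Rarres2* (256), *Nampt* (89.5), *Retn* (53.9), *Apln* (24.3) and *Lep* (8.88 CPM per kb) came next. Ranges over the 3 libraries of neighbours in this order did not overlap. In Ad*Lmo3* libraries the order was the same but for *Retn*, which with 139 to 153 CPM per kb now lay above *Nampt* with 97.3 to 110.8, whereas in AdLacZ libraries it had lain below it, with 48.7 to 62.9 against 70.5 to 99.3 CPM per kb. Means in Ad*Lmo3* libraries were 4632 CPM per kb for *Cfd*, 2714 for *Adipoq*, 358 for *Rarres2*, 145.8 for *Retn*, 101.9 for *Nampt*, 36.3 for *Apln* and 12.4 for *Lep*. The order of the means within each group was the same when the longest or the principal transcript gave the length, but in AdLacZ libraries the ranges of *Retn* (67.5 to 87.2) and *Nampt* (78.7 to 110.8 CPM per kb) then overlapped. The mean of *Rarres2* in AdLacZ libraries was 855.7 CPM per kb with its shorter principal transcript, still between *Adipoq* and *Nampt*.

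**Figure D3:**
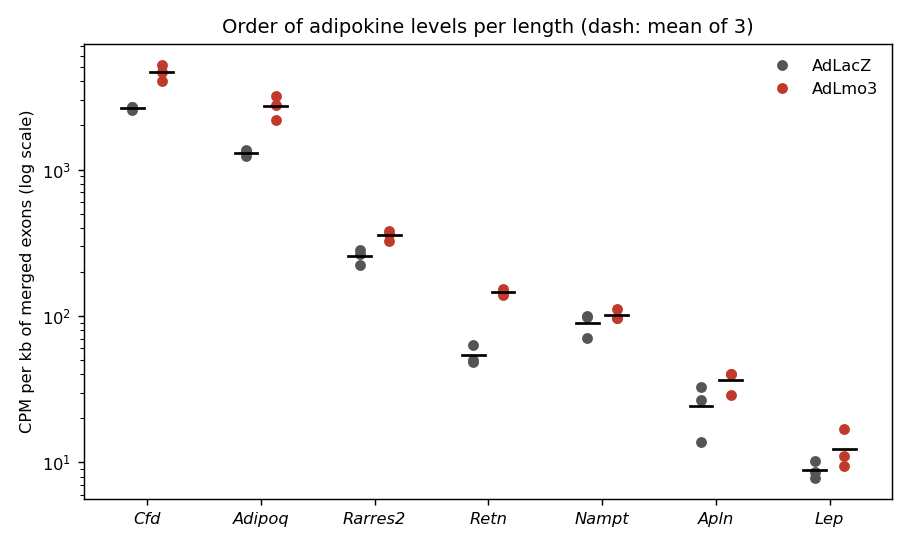
Level of 7 adipokines in CPM per kilobase of merged exons (log scale) in the 3 AdLacZ (grey) and 3 Ad*Lmo3* (red) libraries, with a dash at the mean. *Cfd* and *Adipoq* stand above all others in both groups, and *Retn* moves from below *Nampt*, 53.9 against 89.5, to above it, 145.8 against 101.9. *Rbp4*, at or under 3 counts, is left out.

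Together the 8 adipokines held 0.566%, 0.576% and 0.567% of the gene counts in AdLacZ and 0.838%, 0.980% and 1.07% in Ad*Lmo3* libraries. The groups did not overlap, and the share was 1.69-fold higher in Ad*Lmo3* (exact permutation test, two-sided p = 0.1, the smallest p that 3 against 3 libraries allow). Most of it was *Cfd* and *Adipoq*, which made up 76.2% ± 3.13 of the adipokine counts in AdLacZ and 81.1% ± 1.92 in Ad*Lmo3* libraries (SD, n = 3 each). *Adipoq* took 32.5% of these counts in AdLacZ and 37.8% in Ad*Lmo3* libraries and *Retn* 1.53% and 2.36%, while *Nampt* had 8.12% and 5.27%, *Rarres2* 12.2% and 9.68%, and *Cfd* 43.7% and 43.3%. Without *Cfd* the other 7 held 0.321% and 0.545% of the gene counts, a difference of 0.225 percentage points against 0.391 with it.

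Whether the adipokines moved by different amounts was read from ratios of counts within a library, which do not depend on scaling. The ratio of *Cfd* to *Adipoq* was lower in all 3 Ad*Lmo3* than in all 3 AdLacZ libraries, by 0.23 on the log2 scale. Those of *Rarres2* and *Nampt* to *Adipoq* were lower by 0.55 and 0.84, again with no overlap. Each of these had a two-sided p of 0.1 in an exact permutation test, the smallest possible, and 0.2 after adjustment over 6 ratios. As *Adipoq* itself rose by 1.05 on the log2 scale, a gene without any change would also have a lower ratio to it. The share of all tested genes with such a ratio was not computed. For *Retn*, whose ratio to *Adipoq* differed by 0.41 (p = 0.3 in the same exact test), *Lep* (-0.59, p = 0.4) and *Apln* (-0.39, p = 0.4), the groups overlapped, so a larger change of *Retn* than of *Adipoq* was not shown. Relative to their size these 3 of the 6 ratios moved most when single libraries were left out. That of *Retn* was 0.26 without Ad*Lmo3* replicate 1. That of *Lep* was -0.97 without Ad*Lmo3* replicate 1 and -0.39 and -0.40 without replicates 2 and 3 of that group. That of *Apln* ran from -0.09 without AdLacZ replicate 2 and -0.11 without Ad*Lmo3* replicate 3 to -0.61 without Ad*Lmo3* replicate 1 and -0.78 without AdLacZ replicate 1.

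The adipocyte markers also differed between the groups. Of the 10 markers 6 were induced (*Cidec*, *Fabp4*, *Lipe*, *Acsl1*, *Plin1* and *Pparg*, from 0.69 for *Cidec* to 0.48 for *Pparg* on the log2 scale), and the median over all 10 was 0.52. Over all tested genes 2.71% were called and higher, and 4.28% were called in either direction. These shares also belong beside the counts of the lists that follow. *Cidec* was called whichever library was left out, and it was the only marker called without AdLacZ replicate 3 or without Ad*Lmo3* replicate 2. The number called was 3 without AdLacZ replicate 1, 2 without AdLacZ replicate 2, 6 without Ad*Lmo3* replicate 1 and 5 without Ad*Lmo3* replicate 3. Set against the geometric mean of the 10 markers in the same library, a comparison added after the values were known, *Retn* was higher in every Ad*Lmo3* library by 1.01 on the log2 scale on average, *Adipoq* by 0.60 and *Cfd* by 0.37, each without overlap between the groups. Their two-sided p was 0.1 in the exact permutation test and 0.233 after adjustment over 7 ratios. The ratios of *Rarres2* (0.05, p = 0.7), *Lep* (0.01, p = 1), *Apln* (0.21, p = 0.7) and *Nampt* (-0.23, p = 0.3, exact permutation tests) to the markers overlapped. The part of the markers in the changes of the adipokines was not tested.

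**Figure D4:**
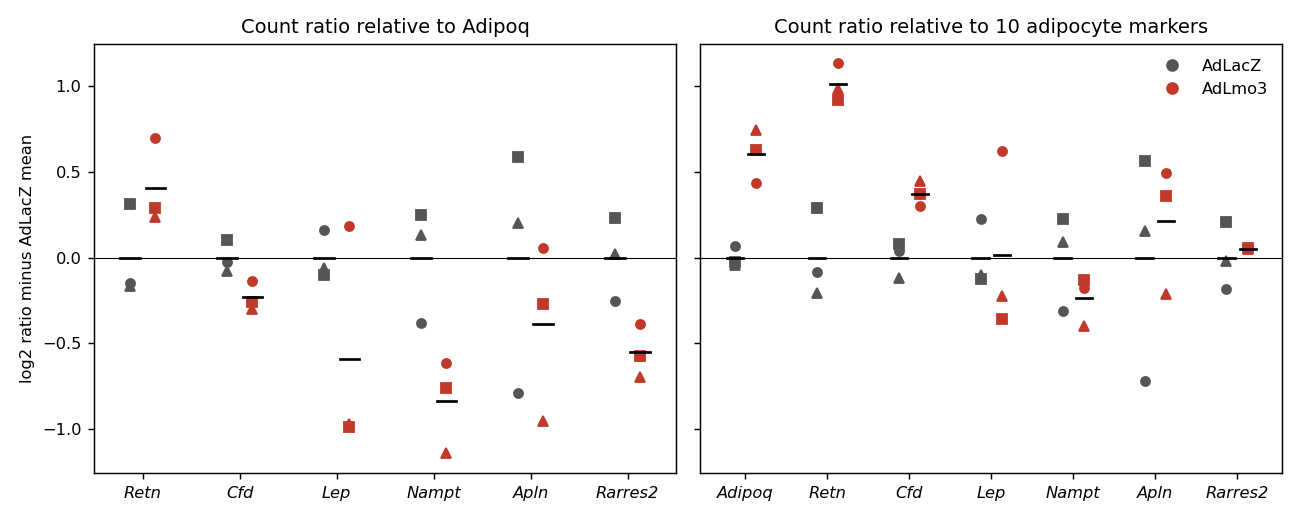
Log2 ratio of each adipokine's counts to *Adipoq* (left) and to the geometric mean of 10 adipocyte markers (right) in each library, minus the AdLacZ mean, with circle, square and triangle for replicates 1, 2 and 3 and a dash at the group mean. On the left the Ad*Lmo3* libraries (red) lie below the AdLacZ libraries (grey) for *Cfd*, *Nampt* and *Rarres2*, and on the right they lie above them for *Adipoq*, *Retn* and *Cfd*.

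The patterns over the 6 libraries were compared by the root mean square difference of log2 CPM, centred on the AdLacZ mean. Differences in fold change between genes count in this distance, so it does not isolate shared variation between the libraries of a group. Of all pairs of tested adipokines *Adipoq* and *Cfd* were most alike, at 0.179, and *Retn* and *Nampt* least, at 0.898. Among all tested genes those closest to *Adipoq* were *A530016L24Rik* (0.0458), *Sult1a1* (0.0771), a sulfotransferase, and *Ces1d* (0.0780), a carboxylesterase. Closest to *Cfd* were *Trabd2b* (0.0764), *Mapk6* (0.0778), an atypical MAP kinase, and *Sh3glb2* (0.0786). *Retn* had *Gm6484* (0.0951), *Wfdc21* (0.0996) and the cyclin gene *Ccnb1* (0.156) nearest to it, and *Rarres2* had *Rai1* (0.0555), *Aifm2* (0.0578) and *Dysf* (0.0655). In *Ccnb1* 18.9% of the stretches of 75 bases also occur in other genes.

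Other secreted factors of adipocytes were listed beside the 8. Of 41 such genes, 27 were tested, 5 were induced and 1 repressed, with 17 higher and 10 lower by log2 fold change and a median of 0.08. Over all tested genes 1.57% were called and lower. Haptoglobin (*Hp*), an acute-phase protein that binds haemoglobin, rose by 1.13 (adjusted p = 0.00356), and angiotensinogen (*Agt*), the precursor of angiotensin, by 1.05 (adjusted p = 0.00915, both edgeR). *Orm1*, another acute-phase protein (0.92, adjusted p = 0.0235), *Angptl2* (0.59, adjusted p = 0.0156) and the growth factor gene *Igf1* (0.54, adjusted p = 0.0265) were also called in edgeR. *Orm1* shares 13.8% of its stretches of 75 bases with *Orm2*. *Fgf21*, a hormone released under metabolic stress, had only 52 to 62 counts in AdLacZ and 8 to 16 counts in Ad*Lmo3* libraries and fell by 2.15 on the log2 scale (adjusted p = 0.0102, edgeR). Without AdLacZ replicate 3 only *Hp* of these 6 was still called, *Agt* and *Fgf21* each having an adjusted p of 0.0558. *Orm1* was also lost without AdLacZ replicate 2 or Ad*Lmo3* replicate 2 (0.0653 to 0.107 over its lost calls) and *Angptl2* without AdLacZ replicate 1 or Ad*Lmo3* replicate 2 (0.0515 to 0.0910), and *Igf1* was called only without AdLacZ replicate 1 (otherwise 0.0507 to 0.127).

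Receptors for the adipokines were mostly scarce in the adipocytes themselves. Of 15 receptors and binding proteins 5 were tested, 1 was called, 3 were higher and 2 lower, and the median log2 fold change was 0.04. *Adipor2*, an adiponectin receptor, had 579.9, 613 and 644 CPM in the AdLacZ and 738, 831 and 915 CPM in the Ad*Lmo3* replicates, and a log2 fold change of 0.43 (adjusted p = 0.0431, edgeR). That call was lost when any library but Ad*Lmo3* replicate 1 was left out, with adjusted p-values up to 0.146, and with library totals alone (0.0525). *Adipor1*, the other adiponectin receptor, had 263 ± 5.29 and 269.9 ± 13.8 CPM (SD, n = 3 each). Its log2 fold change of 0.04 (95% interval -0.12 to 0.19, adjusted p = 0.820, edgeR) became -0.04 with library totals alone. *Lepr*, the leptin receptor, had 3 to 12 counts per library (log2 fold change 0.37, adjusted p = 0.767, edgeR), too few for a stable value, as it was 0.02 without AdLacZ replicate 1 and 0.70 without Ad*Lmo3* replicate 1. *Cmklr1* and *Aplnr*, the receptors for chemerin and apelin, had 2 to 12 and 0 to 6 counts and were not tested.

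The enzymes and partners around each adipokine were read in the same way. None of the 9 genes for folding, modification and release of adiponectin in the endoplasmic reticulum was called, 3 were higher and 6 lower, and their median log2 fold change was -0.12. *Erp44*, which retains adiponectin through thiol bonds, was among them (-0.12, 95% interval -0.28 to 0.03, adjusted p = 0.355, edgeR). *Ero1l* ran from 659 to 2248 CPM within AdLacZ, so its -0.61 (95% interval -1.56 to 0.34) shows neither a change nor its absence. Only *P4hb* (-0.24, adjusted p = 0.211) and *Ero1lb* (-0.28, adjusted p = 0.202, edgeR) of the 9 had groups that did not overlap. Over all tested genes 26.5% did not overlap, in either direction. Around *Nampt*, 13 of 14 genes of NAD metabolism were tested and none was called, with 11 higher, 2 lower and a median of 0.08. *Nmnat1*, which takes the product of NAMPT to NAD in the nucleus, had 0.27 (adjusted p = 0.224, edgeR).

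Around *Cfd*, 9 of 11 complement genes were tested, 1 was called, 7 were higher and 2 lower, with a median of 0.15. *C3*, the complement component that carries the pathway *Cfd* serves, had 1967, 1998 and 1969 CPM in the AdLacZ and 3138, 2997 and 3911 CPM in the Ad*Lmo3* replicates. All Ad*Lmo3* libraries were higher, and the log2 fold change was 0.76 (95% interval 0.51 to 1.01, adjusted p = 0.0115, edgeR), beside 0.81 for *Cfd*. Without AdLacZ replicate 3 the adjusted p of *C3* was 0.0711. *Cfb*, complement factor B, which adipsin cleaves, had 28.5, 20.0 and 31.4 CPM in the AdLacZ and 39.6, 65.4 and 125.3 CPM in the Ad*Lmo3* replicates. The groups did not overlap, the Ad*Lmo3* libraries were far apart from each other, and the log2 fold change of 1.53 had an adjusted p of 0.0651 in edgeR. It was 1.84 (adjusted p = 0.0132) without Ad*Lmo3* replicate 1 and 0.98 (adjusted p = 0.0752, edgeR) without Ad*Lmo3* replicate 3, the highest library. As 69.9% of the stretches of 75 bases in *Cfb* also occur in the annotated gene *Gm20547*, its counts are uncertain.

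Around *Rbp4*, 7 of 10 genes for handling retinoids were tested, 1 was repressed, 3 were higher and 4 lower, and the median was -0.02. *Bco1*, which splits β-carotene to retinal, fell by 1.75 on the log2 scale (adjusted p = 0.0333, edgeR), from 5.24 ± 1.61 to 1.52 ± 0.739 CPM (SD, n = 3 each). It was called in 1 of the 6 fits without a library, that without Ad*Lmo3* replicate 2, and in the other 5 the adjusted p was 0.0506 to 0.140. *Rdh10*, which makes retinal from retinol, had 0.23 (adjusted p = 0.408, edgeR), with 0.12 without AdLacZ replicate 2 and 0.40 without AdLacZ replicate 1.

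Of 21 transcription factors and cofactors listed for the adipokine genes, 3 were induced, 1 was repressed, 15 were higher and 6 lower. Their median log2 fold change was 0.15. *Cebpa* rose by 0.59 (adjusted p = 0.0111), *Pparg* by 0.48 (adjusted p = 0.0316) and *Nr1h3*, the liver X receptor α, by 0.39 (adjusted p = 0.0405) on the log2 scale, and *Ddit3*, which encodes the stress factor CHOP, fell by 0.84 (adjusted p = 0.0471, all edgeR). *Pparg* levels were 377, 367 and 422 CPM in the AdLacZ and 493, 534 and 604 CPM in the Ad*Lmo3* replicates. None of these 4 kept its call without AdLacZ replicate 3, where the adjusted p-values were 0.0601 for *Cebpa*, 0.0801 for *Pparg*, 0.134 for *Nr1h3* and 0.166 for *Ddit3*. Leaving out other libraries also ended the calls of *Pparg*, except without Ad*Lmo3* replicate 1, of *Nr1h3* in each case, and of *Ddit3* except without Ad*Lmo3* replicate 1 or 3, with adjusted p-values from 0.0589 to 0.144. With library totals alone *Nr1h3* had an adjusted p of 0.0639. *Retn* was still called without AdLacZ replicate 3.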

How the data were processed

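RNA of 3T3-L1 adipocytes (3 AdLacZ and 3 Ad*Lmo3* libraries, 75-base single reads) was sequenced by the authors, who deposited unnormalized counts of reads per gene symbol, 1 table per library. Per the submitters' processing notes, bcl2fastq, STAR 2.5.0b, DESeq2 1.6.3 and mm10 were used. The counting program, its annotation and strand setting are not given in the sources used here. Reads on no gene (7.15% to 8.94%) or on several (0.476% to 0.543%) were left out.

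In R 4.3.3 the counts were fitted with edgeR 4.0.16 (filterByExpr, TMM, quasi-likelihood test, Benjamini-Hochberg adjustment over 12766 genes, threshold 0.05, no replicate block). The floor of 3 counts covers counting error only. No 2 libraries agreed within sampling noise (chi-square per degree of freedom 24.0 to 64.0), and the labels named no sequencing batch. On simulated counts for this comparison (12675 genes, 200 changed 2-fold) 84% of the changed genes were recovered with 5.62% false calls. Smaller changes were not simulated, so the recovery of changes under 2-fold is not known from it. Positions, exon lengths and shared 75-base stretches came from GENCODE for GRCm38, and promoters from RefSeq (GRCm38.p6). *Rarres2* had no promoter window and *Gm6484* no position. *Rbp4* was left out of the ratios, so that 6 were adjusted together. Figures were drawn with matplotlib 3.10.9.

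The members and all gene lists were chosen with earlier results of these data known. Named were the 8 adipokines, up to 8 called genes of each list by lowest adjusted p, fixed receptors and partners (*Adipor1*, *Adipor2*, *Lepr*, *Cmklr1*, *Aplnr*, *Cfb*, *C3*, *Erp44*, *Nmnat1*, *Rdh10*, *Pparg*, *Cebpa*), and the 3 genes most like each called adipokine. *Lrrc61*, *Orm2*, *Gm20547*, *Adgre1*, *Ptprc*, *Col3a1*, *Col1a1*, *Dlk1*, *Ero1l*, *P4hb* and *Ero1lb* were named after their values were seen. Alternatives were other scaling (DESeq2 size factors, upper quartile, library totals), no count filter or 1 CPM in 3 libraries, DESeq2 1.42.0, limma voom (limma 3.58.1), the replicate number as a block, and leaving out each library. The principal transcript as length and the marker genes as denominator were added after seeing the data.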

Additional observations from a re-analysis of the deposited data

How the results depend on the processing

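*Retn* kept its call in all 14 alternative fits, and *Adipoq* and *Cfd* in all but the fit without AdLacZ replicate 3. The number of adipokines called was 4 in every fit with all libraries except library totals only, where it was 3, and 1 to 4 when single libraries were left out, the 1 (*Retn*) without AdLacZ replicate 3. Over all genes 547 calls became 1104 with DESeq2 (671 higher, 433 lower) and 77 to 501 without single libraries (55 to 354 higher, 22 to 147 lower), the lowest without AdLacZ replicate 3. With library totals only 501 genes were called lower, 34.7% of calls were higher instead of 63.3%, the median log2 fold change of all genes was -0.07, and *Adipor1* had -0.0386. The lists' calls were 11 for other secreted factors with DESeq2, 0 for receptors with library totals only, and 2 for complement genes with DESeq2 or with no count filter. Without single libraries they were 1 to 6 for other secreted factors, 0 to 1 for receptors and 0 to 1 for retinoid genes. Complement genes then had 0 to 2, transcription factors and cofactors 0 to 3 and adipocyte markers 1 to 6 calls. Taken against the marker genes instead of *Adipoq*, the log2 ratios were 1.01 for *Retn*, 0.37 for *Cfd*, 0.0134 for *Lep*, -0.23 for *Nampt*, 0.21 for *Apln* and 0.0516 for *Rarres2*. Without *Cfd* the summed share differed by 0.225 percentage points. Beyond what fewer libraries or another denominator change by construction, the cause was not tested.

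The main fit had no replicate block because the paper states no covariate for its DESeq2 fit. Same-numbered libraries of the groups deviated together only weakly (correlations across genes of 0.03, 0.18 and 0.18). These correlations are over all genes and do not describe each single gene. Blocking on the replicate number, 498 genes and the same 4 adipokines were called (adjusted p = 0.00884 for *Retn*, 0.0153 for *Adipoq*, 0.0180 for *Cfd* and 0.0268 for *Rarres2*, edgeR). The block gave 1 call in the NAD list, 0 in the retinoid list and 2 in the complement list. It ended the calls of *Bco1* (0.0693) and *Ddit3* (0.0532) and made one of *Cfb* (0.0484). Counting depth did not limit the 7 tested adipokines, each with 982 or more counts in every library, and limited *Rbp4*, *Lepr*, *Cmklr1* and *Aplnr*.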
